A study of Danio rerio with 6 samples.

Results

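The genes described here encode proteins that build, restrain or switch on the proteasome without being part of the finished particle. They are the core assembly genes *pomp*, *psmg1*, *psmg2* and *psmg3*, the base assembly genes *psmd5*, *psmd9* and *psmd10*, the inhibitor gene *psmf1*, and the transcription factor genes *nfe2l1a* and *nfe2l3*. They were taken by symbol, and all 10 were found among the 30713 named rows of the count table. The members were chosen by their function, but with the measured differences in read counts between the groups in these same pools already known. Their fold changes are therefore given as a description. The only use of a test on them is a count set beside the background, with how often its calls held. Nothing is read from either. RNA-Seq was performed on pools of 30 whole wild-type (WT) AB zebrafish larvae at 7 dpf. Embryonic alcohol exposure (EAE) pools (n = 3) were kept in 1% EtOH between 12 hpf and 5 dpf, and control pools (n = 3) in 0% EtOH over the same window. Every pool then spent 5 to 7 dpf in system water with paramecia, so the measurements describe larvae 48 hours after the exposure had ended. The labels speak of siblings divided among tubes and the study of combined clutches, so the pools may not be separate clutches. The SDs below measure the spread between these pools. The SEs come from a fit to these pools that shares information on spread across genes.

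The 26S proteasome degrades ubiquitylated proteins. Its 20S core holds the peptidase sites, and the 19S particle, with a base ring of ATPases, recognizes, unfolds and feeds in the substrate. In yeast and mammals the particle does not form unaided. Heterodimers of PAC1 with PAC2 (*psmg1*, *psmg2*) and of PAC3 with PAC4 (*psmg3*, *psmg4*) guide the ring of α subunits, and POMP (*pomp*) brings in the β subunits and is itself degraded once the core is complete. S5b, p27 and gankyrin (*psmd5*, *psmd9*, *psmd10*) hold the ATPases of the base and leave when the base meets the core, so these genes carry *psmd* symbols although their products are not subunits of the mature particle. PI31 (*psmf1*) inhibits the core in vitro. NRF1 (*nfe2l1a* and *nfe2l1b* in zebrafish) is a transcription factor of the ER membrane that raises proteasome genes when proteasome activity falls, and NRF3 (*nfe2l3*) is its relative, which in human cancer cells promotes POMP expression.

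Reads on named genes came to between 19921809 and 23638705 in the EAE pools and between 17264955 and 20724876 in the control pools. Levels are given in CPM, read counts scaled to library size after edgeR's TMM normalization. Counts depend on transcript length, which was not available, so levels are compared between pools and not between genes. Of the 21617 genes tested, 3063 (14.2%) differed at an adjusted p under 0.05 with edgeR's quasi-likelihood test, 1560 (7.22%) of them higher and 1503 (6.95%) lower in EAE larvae. Markers of all the tissues looked for were detected. The listed markers *prss1* (exocrine pancreas) and *krt91* (skin) had no row under those symbols in the count table. Several marker lists held genes past the same threshold, counted next, and their part in the results below was not tested. All 6 neuron markers were lower (summed level 1305 to 1471 CPM in EAE pools and 1640 to 1674 CPM in control pools). Of 6 markers of white blood cells, 5 were higher (322 to 349.7 CPM in EAE pools and 266.7 to 289.2 CPM in control pools). Of 6 liver markers, 4 were higher and 1 lower (2818 to 3142 CPM in EAE pools and 2483 to 2701 CPM in control pools), and of 5 skin markers 3 were higher and 1 lower (7822 to 8557 CPM in EAE pools and 8533 to 9151 CPM in control pools). The skin sum came mostly from reads on *krt4* and *krt5* (4088 and 3435 CPM on average in EAE pools). Of these, *krt5* was the marker called lower, so the sum does not follow the 3 markers called higher. In whole larvae, a different number of cells of a type and a different amount of RNA per cell cannot be told apart.

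All 10 genes had higher mean levels in EAE pools. Of the 21617 genes tested, 10842 had a positive log2 fold change. For *psmg3*, *psmd9* and *psmf1* the log2 fold change was smaller than its SE. The median of the 10 log2 fold changes was 0.17, against 0.0008 over all genes tested. In the fit over all genes *pomp*, *nfe2l3* and *psmg1* had adjusted p-values under 0.05 from edgeR, which is 3 of 10 beside the background of 7.22% of genes higher in EAE larvae. Because the comparison had guided the choice of genes, nothing is read from this count. The call of *psmg1* held in only 4 of 14 alternative analyses, and those of *pomp* and *nfe2l3* in all 14. In 5 of the 10 genes every EAE pool lay above every control pool, as in 16.0% of all genes tested. The members ranged from a log2 fold change of 0.52 for *pomp* to 0.03 for *psmf1*.

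**Figure D1:**
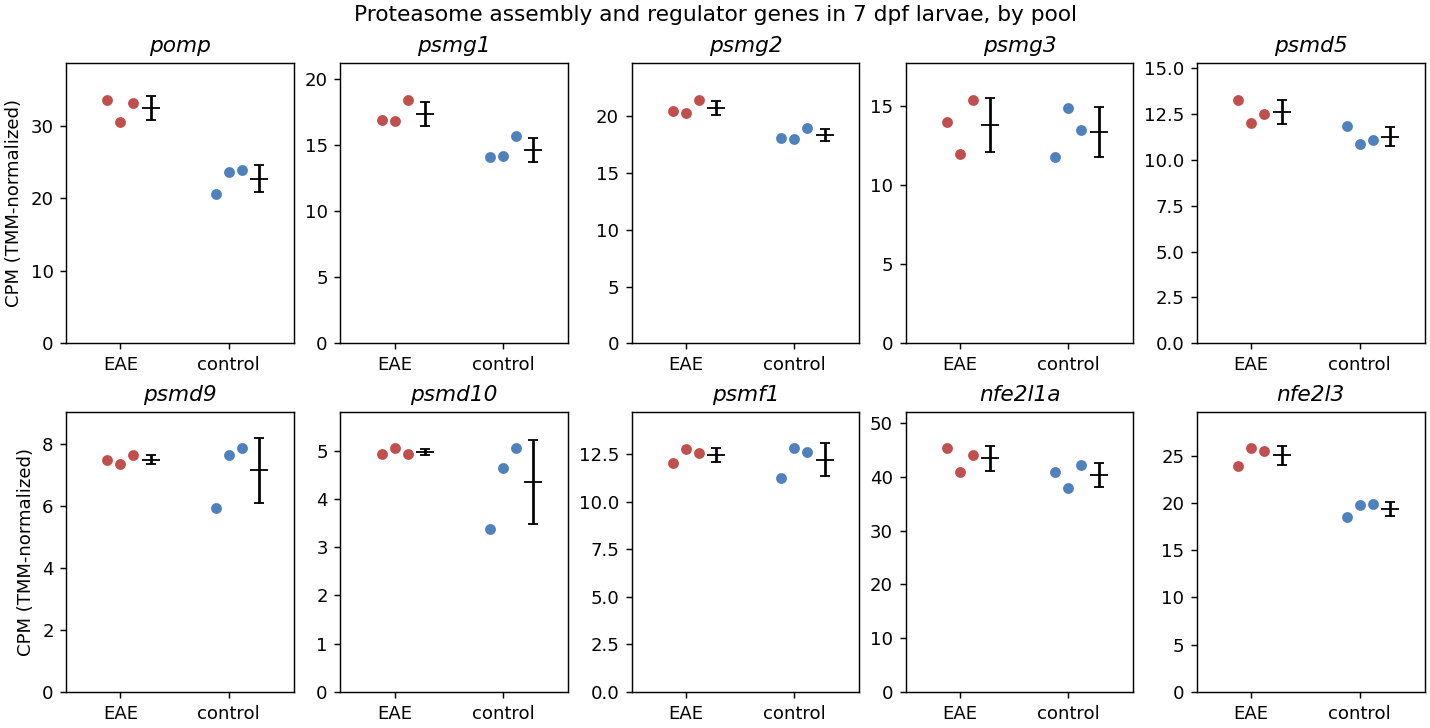
Each panel shows the level of a gene in CPM (y axis, from 0) in the 3 EAE pools and the 3 control pools, as points, with the mean and SD of the group beside them. The groups do not overlap for *pomp*, *psmg1*, *psmg2*, *psmd5* and *nfe2l3*, and overlap for *psmg3*, *psmd9*, *psmd10*, *psmf1* and *nfe2l1a*.

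Among the core assembly genes, *pomp* stood apart. It received 782, 617 and 657 reads in the EAE pools and 407, 407 and 493 reads in the control pools, or 33.6, 30.5 and 33.1 CPM against 20.5, 23.6 and 23.9 CPM. The lowest EAE pool was 6.59 CPM above the highest control pool, a gap wider than the SD within either group (1.64 CPM in EAE and 1.88 CPM in control pools). The log2 fold change was 0.52 (SE 0.07), a 1.43-fold higher level, and 2.99% of all genes tested had a higher log2 fold change. Leaving out any single pool gave log2 fold changes between 0.45 and 0.56.

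The PAC1 and PAC2 genes differed by less. The gene *psmg1* was at 16.9, 16.8 and 18.4 CPM in EAE pools and at 14.1, 14.1 and 15.7 CPM in control pools. The groups were separated by 1.09 CPM, about as much as the SD of either group (0.92 CPM in each), and the log2 fold change was 0.24 (SE 0.08). Leaving out single pools gave log2 fold changes between 0.20 and 0.30. In the current RefSeq annotation, which is of another build than the one the reads were aligned to, *psmg1* overlaps *klhl35*, a gene with a far wider difference. The gene *klhl35* was at 4.42, 7.47 and 3.17 CPM in EAE pools and at 1.36, 1.80 and 1.12 CPM in control pools, a log2 fold change of 1.83 (SE 0.28, adjusted p = 2.7e-04 from edgeR). Whether the pair shared reads was not tested.

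Its partner *psmg2* was at 20.5, 20.3 and 21.4 CPM in EAE pools and at 18.0, 18.0 and 18.9 CPM in control pools. The groups did not overlap, with a gap of 1.35 CPM and within-group SDs of 0.62 CPM in EAE and 0.52 CPM in control pools. The log2 fold change was 0.18 (SE 0.07), and 18.9% of all genes had a higher one. The PAC3 gene *psmg3* had 326, 242 and 306 reads in EAE pools and 233, 257 and 278 reads in control pools, or 12.0 to 15.4 CPM against 11.7 to 14.9 CPM. Here the groups were interleaved, with log2 fold change 0.05 (SE 0.10), which became -0.04 without control replicate 1, -0.03 without EAE replicate 3 and 0.14 without EAE replicate 2. The gene of its partner, *psmg4*, had no row under that symbol in the count table.

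Of the base assembly genes, *psmd9* and *psmd10* rested on the fewest reads of the 10 genes, and their fold changes had the widest SEs. The S5b gene *psmd5* was at 13.3, 12.0 and 12.5 CPM in EAE pools and at 11.8, 10.8 and 11.1 CPM in control pools. The groups were separate by only 0.13 CPM, and the log2 fold change was 0.16 (SE 0.09). The p27 gene *psmd9* was at 7.47, 7.37 and 7.65 CPM in EAE pools and at 5.95, 7.65 and 7.87 CPM in control pools. All 3 EAE pools lay between the lowest and the highest control pool, the log2 fold change was 0.07 (SE 0.12), and it was -0.05 without control replicate 1 and up to 0.15 (without control replicate 3).

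The gankyrin gene *psmd10* had 115, 102 and 98 reads in EAE pools and 67, 80 and 104 reads in control pools. Counting noise alone gives a coefficient of variation of 12.2% in the pool with 67 reads. In CPM it was at 4.94, 5.05 and 4.93 in EAE pools and at 3.38, 4.63 and 5.05 in control pools. Single control pools moved the log2 fold change of 0.19 (SE 0.15) in either direction, to 0.03 without control replicate 1 and to 0.33 without control replicate 3. RefSeq places *nxt2* over *psmd10*. The gene *nxt2* averaged 4.52 CPM in EAE pools and 5.12 CPM in control pools, a log2 fold change of -0.18 (SE 0.15).

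The inhibitor gene *psmf1* was at 12.0, 12.8 and 12.5 CPM in EAE pools and at 11.2, 12.8 and 12.6 CPM in control pools. The highest EAE and the highest control pool were at nearly the same level, and the log2 fold change of 0.03 (SE 0.09) was the smallest of the 10 genes, with a range of -0.03 (without control replicate 1) to 0.06 (without control replicate 2) over the fits that left out a pool.

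The fold changes of the assembly and inhibitor genes were read beside those of the subunits they serve. Core genes of the immunoproteasome and the MHC-linked genes *psmb12* and *psmb13a* were kept apart from the constitutive 20S core. All 16 genes for the constitutive 20S core and all 21 found for the 19S particle were higher in EAE larvae. The threshold was an adjusted p under 0.05 (edgeR's quasi-likelihood test), which 7.22% of all genes tested passed as higher. The medians of the log2 fold changes were 0.42 for the 20S and 0.35 for the 19S genes. The 19S gene *psmd2* had no row under that symbol in the count table. These lists, too, were written with earlier results of these data known. Of the 5 immunoproteasome and MHC-linked core genes tested, 1 passed, as higher (*psmb10*, log2 fold change 0.55), and *psmb8a*, *psmb9a*, *psmb12* and *psmb13a*, with mean levels under 2 CPM, had log2 fold changes of 0.18 (SE 0.34), 0.46 (SE 0.25), 0.52 (SE 0.36) and 0.37 (SE 0.34). The lowest values among the constitutive 20S and the 19S genes were *psma6b* at 0.22 and *psmd4b* at 0.24. The gene *pomp* lay within the range of the constitutive 20S genes (0.22 to 0.61), and *psmg1* lay near its lower end. The other 6 assembly and inhibitor genes had log2 fold changes below those of every constitutive 20S and 19S gene, and *psmb8a* at 0.18 lay among them. This order was not tested. The values of *psmg2*, *psmd5* and *psmd10* lay within their own SE of that of *psma6b*, and *psmd10* rose to 0.33 without control replicate 3.

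**Figure D2:**
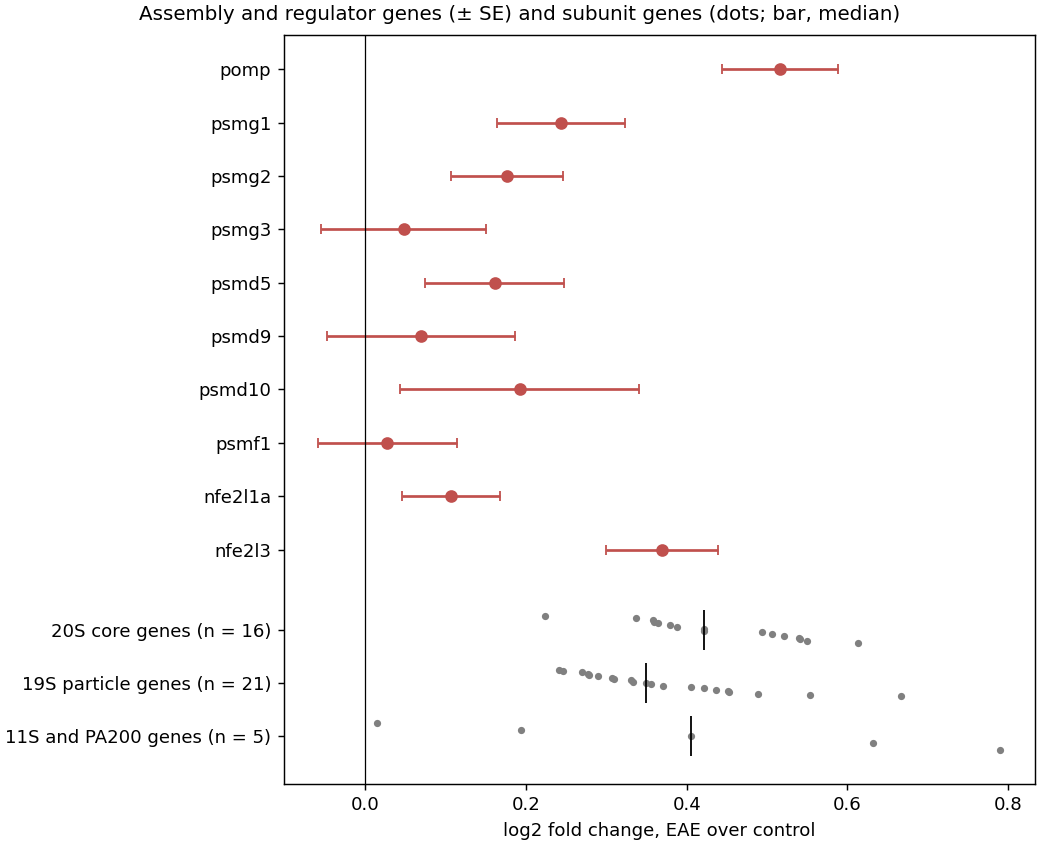
The x axis gives the log2 fold change of EAE over control pools. Red points with bars show the 10 assembly and regulator genes with their SE, grey dots the single genes for the constitutive core (20S, without the immunoproteasome and MHC-linked genes), 19S and activators (11S with PA200), and black ticks the median of each part (0.42, 0.35 and 0.41). The gene *pomp* sits among the 20S genes, while *psmg2*, *psmg3*, *psmd5*, *psmd9*, *psmd10* and *psmf1* sit left of all the 20S and 19S genes plotted.

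Expressed per 1000 reads on constitutive 20S core genes, a ratio within each pool that needs no scaling between pools, *pomp* had 29.8, 28.4 and 28.6 reads in the EAE pools and 24.6, 28.7 and 28.4 reads in the control pools. The groups overlapped, and control replicate 1 was the only pool apart. The summed reads of *psmg1*, *psmg2* and *psmg3* were at 45.6, 45.5 and 47.8 per 1000 in EAE pools and at 52.5, 57.2 and 57.1 per 1000 in control pools. This ratio was lower in every EAE pool than in any control pool. The mean difference was -0.26 on the log2 scale, and the lower ratio also held for each of the 3 genes singly. Core reads were themselves a larger share of all named reads in every EAE pool, with a mean log2 difference of 0.42. A gene at an unchanged level would therefore also have a lower ratio, and the mean CPM of each of these 3 genes was higher in EAE pools. The separation of the ratios is therefore not read as a feature of the PAC genes.

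Relative to the 7 genes of the 19S ATPases, the summed reads of *psmd5*, *psmd9* and *psmd10* were 51.7, 49.4 and 49.95 per 1000 in EAE pools and 55.0, 62.5 and 61.7 per 1000 in control pools. The groups again did not overlap, with a mean log2 difference of -0.24. Taken singly, *psmd5* and *psmd9* had groups that did not overlap. For *psmd9* the separation was narrow (15.05, 14.92 and 15.25 per 1000 in EAE pools, 15.44, 20.69 and 20.22 per 1000 in control pools). Control replicate 1, with 118 *psmd9* reads, was the control pool that lay close to the EAE pools. The groups of *psmd10* overlapped (9.95, 10.2 and 9.83 per 1000 in EAE pools, 8.77, 12.5 and 12.98 per 1000 in control pools). The gene *psmf1* was at 10.7, 11.8 and 10.8 per 1000 20S reads in EAE pools and at 13.5, 15.6 and 14.9 per 1000 in control pools, a mean log2 difference of -0.40. Reads of the 19S particle (21 genes) were likewise a larger share of all named reads in every EAE pool, with a mean log2 difference of 0.37. For the 20S core the difference was 0.42. The share of the 7 ATPase genes alone was not computed. Here too a gene at an unchanged level would have a lower ratio, and the log2 fold change of *psmf1* was 0.03. The share of all genes with ratios lower in every EAE pool was not computed. These ratios come from the same comparison that guided the choice of genes and carry no test.

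**Figure D3:**
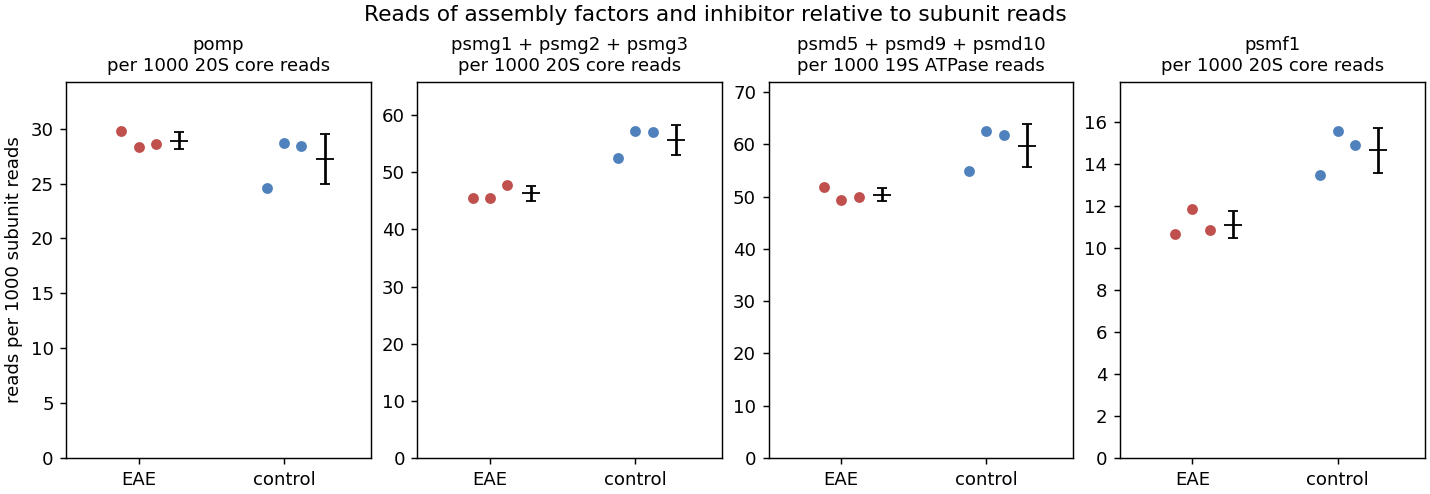
The y axis of each panel, from 0, gives reads of the named genes per 1000 reads of 20S core genes (*pomp*, the PAC genes, *psmf1*) or of 19S ATPase genes (*psmd5*, *psmd9*, *psmd10*) in each EAE and control pool, with mean and SD beside the points. The *pomp* ratio overlaps between the groups, and the other 3 are lower in all EAE pools than in all control pools. Reads of the 20S core and of the 19S particle were a larger share of all reads in EAE pools, which lowers such ratios for unchanged genes. The share of the 19S ATPase genes alone was not computed.

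Of the transcription factor genes, *nfe2l3* was at 23.9, 25.8 and 25.5 CPM in EAE pools and at 18.5, 19.8 and 19.9 CPM in control pools. Every EAE pool was at least 4.02 CPM above every control pool, which exceeds the SD within either group (1.02 CPM in EAE and 0.76 CPM in control pools). Its log2 fold change of 0.37 (SE 0.07) was the second highest of the 10 genes, 6.12% of all genes tested had a higher one, and it lay between 0.34 and 0.40 with each pool left out. The NRF1 gene *nfe2l1a* was at 45.3, 40.9 and 44.1 CPM in EAE pools and at 40.8, 37.9 and 42.2 CPM in control pools. Its groups overlapped, with a log2 fold change of 0.11 (SE 0.06) that ranged from 0.07 without control replicate 2 to 0.15 without EAE replicate 2. RefSeq places *cbx1a* partly over it, a gene that averaged 63.7 CPM in EAE pools and 67.2 CPM in control pools. The paralog *nfe2l1b*, which is not among the 10 genes, had a log2 fold change of -0.01 (SE 0.07, adjusted p = 0.92 from edgeR), and reads could be shared between the paralogs in the authors' counting.

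Other genes were taken from a list of 26 symbols around NRF1, of which 24 were tested. It was written with earlier results of these data known, so nothing is read from its counts. The list holds genes that act with or on NRF1. It also holds the paralog *nfe2l1b*, the related factor genes *nfe2*, *nfe2l2a* and *nfe2l2b*, and the NRF2 inhibitor genes *keap1a* and *keap1b*. Their median log2 fold change was 0.003, with 4 higher (16.7%, against 7.22% of all genes) and 1 lower (4.17%, against 6.95%) at an adjusted p under 0.05 (edgeR's quasi-likelihood test). The count fell to 2 when EAE replicate 1, control replicate 1 or control replicate 2 was left out, and to 3 without EAE replicate 3 or with DESeq2. The gene *vcp*, for the ATPase that draws NRF1 out of the ER membrane, averaged 264.7 ± 5.93 CPM in EAE pools and 211.5 ± 2.46 CPM in control pools (SD, n = 3 each), a log2 fold change of 0.32 (SE 0.05, adjusted p = 2.0e-04 from edgeR). The gene *ddi2*, for the protease that cleaves NRF1, was at 42.3, 40.0 and 42.2 CPM in EAE pools and at 35.7, 33.9 and 38.0 CPM in control pools, a log2 fold change of 0.21 (SE 0.06, adjusted p = 0.026 from edgeR). This call was lost with DESeq2 and without EAE replicate 1 or 3 or control replicate 1 or 2 (adjusted p up to 0.12 over the alternatives). The gene *ngly1*, for the enzyme that removes its sugars, had a log2 fold change of 0.13 (SE 0.08, adjusted p = 0.27 from edgeR).

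The gene *bach1b*, for a repressor that competes at the same DNA sites, was at 33.6, 30.4 and 30.3 CPM in EAE pools and at 26.9, 24.7 and 24.0 CPM in control pools, a log2 fold change of 0.32 (SE 0.07, adjusted p = 0.0051 from edgeR). Its relatives *bach1a*, *bach2a* and *bach2b* did not pass, with log2 fold changes of -0.06 (SE 0.08), -0.31 (SE 0.13) and -0.19 (SE 0.09). The NRF2 inhibitor gene *keap1b* had a log2 fold change of 0.19 (SE 0.05, adjusted p = 0.022 from edgeR). This call was lost with DESeq2, with the replicate block and without any pool other than EAE replicate 2 (adjusted p up to 0.070). The paralog *keap1a* did not pass, with a log2 fold change of -0.02 (SE 0.07). The gene *ogt.1*, for an enzyme that adds GlcNAc to proteins, was the only one lower past the threshold, at 387.6, 404.0 and 417.5 CPM in EAE pools and at 473.4, 457.7 and 439.4 CPM in control pools, a log2 fold change of -0.18 (SE 0.05, adjusted p = 0.029 from edgeR). It did not pass with the replicate block or without EAE replicate 1, control replicate 1 or control replicate 2 (adjusted p up to 0.13). The NRF2 genes *nfe2l2a* and *nfe2l2b* had log2 fold changes of 0.02 (SE 0.05) and 0.09 (SE 0.11), and the small MAF partner genes *maff*, *mafga*, *mafgb* and *mafk* ranged from -0.45 to 0.17. None of these 6 passed.

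**Figure D4:**
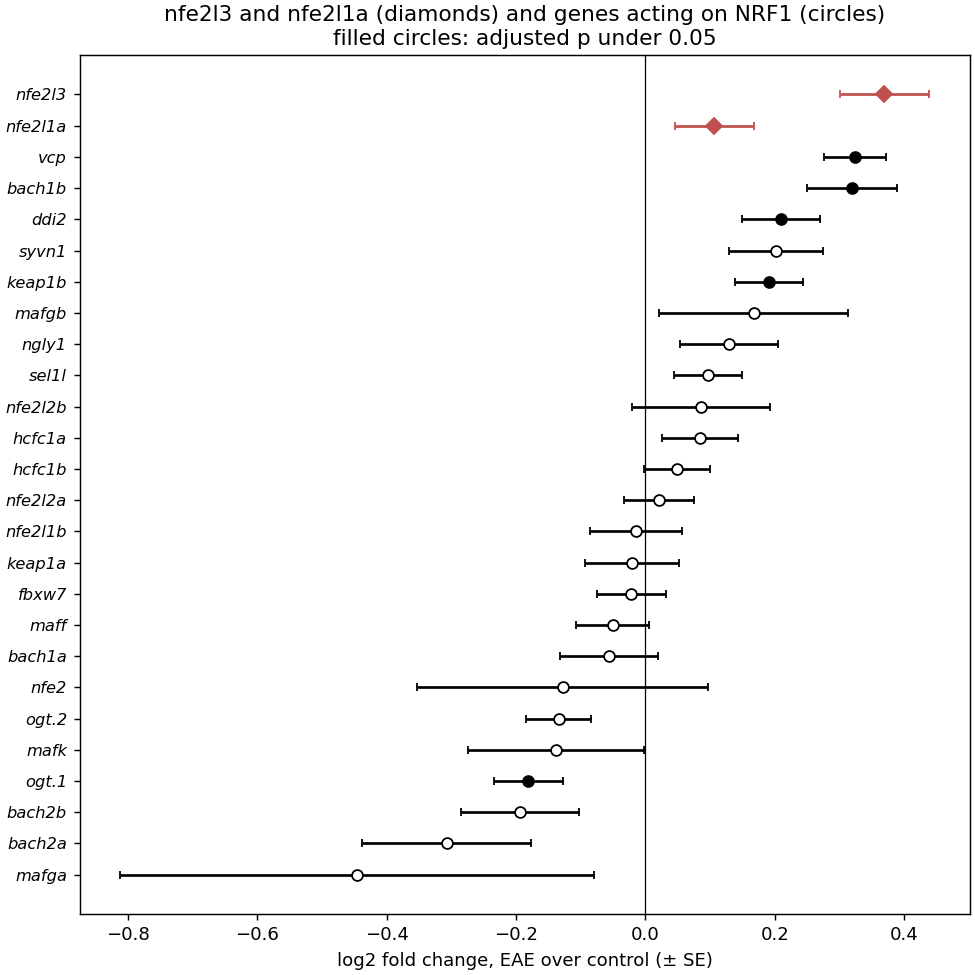
The x axis gives the log2 fold change of EAE over control pools with its SE. Red diamonds are *nfe2l3* (0.37) and *nfe2l1a* (0.11), shown without a test. Circles are the 24 tested genes of the list around NRF1, which also holds *nfe2l1b*, *nfe2* and the NRF2 and *keap1* genes. They are filled for the 5 with an adjusted p under 0.05 (edgeR's quasi-likelihood test), of which *ogt.1* alone is lower.

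A further list held 16 symbols of other assembly factors and proteins bound to the proteasome, of which 10 were tested. Of these, 3 passed an adjusted p of 0.05, each as higher (edgeR's quasi-likelihood test), against 7.22% of all genes. This list was written with earlier results of these data known, so nothing is read from the count. The median log2 fold change was 0.11, and 2 passed without EAE replicate 1, control replicate 1 or control replicate 2. The widest difference was that of *txnl1*, for a thioredoxin-like protein of the 19S particle, at 76.1, 77.7 and 89.4 CPM in EAE pools and at 60.1, 51.6 and 55.6 CPM in control pools. Its log2 fold change was 0.54 (SE 0.07, adjusted p = 3.9e-05 from edgeR), close in size to that of *pomp*. The gene *usp14*, for a deubiquitinase on the 19S particle, ranged over 22.5 to 24.7 CPM in EAE pools and 18.6 to 19.5 CPM in control pools, a log2 fold change of 0.30 (SE 0.07, adjusted p = 0.0073 from edgeR). The ubiquilin gene *ubqln4*, for a shuttle of ubiquitylated proteins, had a log2 fold change of 0.20 (SE 0.05, adjusted p = 0.015 from edgeR) and was the gene lost in those 3 fits (adjusted p up to 0.074). The genes *fbxo7*, whose human product binds PI31, and *akirin2*, whose human product carries proteasomes into the nucleus, did not pass, with log2 fold changes of 0.13 (SE 0.08) and 0.12 (SE 0.07).

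The activator PA200, which caps the core in place of the 19S particle, is encoded by the paralogs *psme4a* and *psme4b*, which could share reads. The gene *psme4a* averaged 95.8 ± 4.20 CPM in EAE pools and 83.6 ± 8.38 CPM in control pools (SD, n = 3 each), a log2 fold change of 0.19 (SE 0.06, adjusted p = 0.048 from edgeR), just past the threshold. It passed in 5 of 14 alternatives, of those without a pool only in the one without control replicate 1, and its adjusted p reached 0.24. The gene *psme4b* averaged 59.5 ± 1.11 CPM in EAE pools and 58.9 ± 0.77 CPM in control pools (SD, n = 3 each), a log2 fold change of 0.01 (SE 0.05, adjusted p = 0.88 from edgeR). The 11S genes *psme1*, *psme2* and *psme3* had log2 fold changes of 0.63, 0.79 and 0.41, each past the threshold (edgeR). Whether the 11S and PA200 genes differed from each other in fold change was not tested.

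The genes most like *pomp*, *psmd5* and *nfe2l1a* over the 6 pools were sought by the Euclidean distance between log2 CPM values centred on the mean of each gene. For *pomp* they were *tppp*, *wnt11* and F2RL3 (distances 0.045, 0.077 and 0.080). For *psmd5* they were *wipf2a*, *vmhc* and *usp13* (0.041, 0.044 and 0.046), and for *nfe2l1a* they were *ptpn23b*, *crygm2d2* and *lctla* (0.023, 0.040 and 0.044). Proteasome subunit genes made up 8 of the 50 genes nearest to *pomp* and 0 of the 50 nearest to *psmd5* or *nfe2l1a*, where they are 0.217% of all genes tested. Genes with a group difference of similar size lie close together by this measure, since the 6 pools fall into 2 groups. The counts of subunit genes therefore largely repeat the fold changes given above, and nothing further is read from them.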

How the data were processed

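Poly-A selected RNA from 6 pools was sequenced as single-end reads. Alignment by the authors was to GRCz10 with STAR, and they deposited unnormalized read counts by gene symbol. The counting program, its use of strand and how it handled multiply aligned reads are not given in the sources used here, which limits paralogs and overlapping genes. The row with no gene name (1.49% to 1.57% of counts) was left out, and 17 rows with names turned into dates were kept in the fit and not named. Genes passing filterByExpr were TMM-normalized and tested with edgeR 4.0.16 (R 4.3.3) by the quasi-likelihood F test with Benjamini-Hochberg adjustment over 21617 genes. The standard error (SE) is the absolute log2 fold change divided by the square root of F. The median SE was 0.0955. Alternatives used DESeq2 1.42.0, limma-voom (limma 3.58.1), other scalings, filters and thresholds, a replicate block, or left out a pool. With 3 pools against 3, an exact permutation test cannot go below p = 0.1. Overlapping genes came from RefSeq of GRCz12tu, so no positions are given. The members and lists were chosen with earlier results of these data known. Named genes are the 10 members, *nfe2l1b*, *psme4a* and *psme4b*, and the 3 genes nearest to each of *pomp*, *psmd5* and *nfe2l1a*. From the list around NRF1 and the list of other bound factors, up to 6 genes past the threshold with the largest changes were named. The same rule was planned for the subunit genes but was not followed there. Other listed genes, the range limits of the subunit lists and *klhl35*, *nxt2* and *cbx1a* were named after their values were seen.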

Additional observations from a re-analysis of the deposited data

How the results depend on the processing

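The number of genes that differed between EAE and control larvae, 3063, was 1846 with DESeq2's Wald test, 1260 at an adjusted p under 0.01 and 1641 to 2996 with each pool left out. Of the genes on the list around NRF1, 5 passed, against 3 with DESeq2, 3 with the replicate block, 2 at an adjusted p under 0.01 and 2 to 6 with each pool left out. Replicate numbers showed no sign of pairing the pools: the deviations of same-numbered pools correlated at -0.0917, -0.116 and -0.189. Those of differently numbered pools correlated at -0.0207 to 0.141, and a shared origin under other numbers was not tested. With the replicate block 2336 genes passed. Counts for the subunit genes (37 to 42) and for the other bound factors (2 or 3) stayed within 1.5-fold of the main value in all 14 alternatives run. All 130 alternative log2 fold changes and 160 alternative mean CPM values of the 10 genes moved by less than the SD within groups. With 3 pools per group, leaving 1 out cannot move a group mean by as much as its SD. Staying under this bar therefore does not measure stability, and *psmd10* stayed under it while ranging from 0.03 to 0.33. The log2 fold changes of *psmg3*, *psmd9* and *psmf1* took negative values when single pools were left out. Genes with around 100 reads per pool, such as *psmd10*, are limited by depth.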
